A study of Mus musculus with 12 samples.

Results

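Peaks of methylated DNA at transcription start sites were examined in the hippocampus of adult mice. The members were chosen by position: a peak entered when its summit, the base of highest enrichment, lay no more than 500 bp from the start site that the deposited annotation gave as nearest, and overlapping peaks of different libraries were merged where they shared at least 1 bp. Of 291673 peaks in 8 libraries 1720 qualified (0.59%), and they formed 571 regions, against 91172 regions when all peaks were merged in the same way (0.626%). The regions named 571 of the 21009 genes in the annotation (2.72%), and 9 regions lay at the starts of more than 1 gene.

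The animals were male C57BL/6J mice at postnatal day 70. Ethanol mice had mothers that drank 10% ethanol by choice, through gestation per the labels and, per the methods, until postnatal day 10. Stress mice were separated from mother and littermates for 3 h per day on postnatal days 2 to 14, Ethanol + stress mice had both treatments, and Control mice had neither. DNA carrying 5-methylcytosine was pulled down with an antibody and sequenced (MeDIP-Seq) in 2 libraries of each group, and each group also had 1 input library without the pull-down, made from another mouse. Each library came from 1 mouse, and the litters of these mice are not given in the sources used here. The peak caller had compared each enriched library with the input of the same group. A difference between groups and a difference between their inputs cannot be told apart. A peak records where methylated fragments piled up above the local background and is no measure of the fraction of methylated copies. The fold enrichment is the peak caller's ratio of the library to that background at the summit. The hippocampus holds many cell types, so fewer cells with methylated copies and fewer methylated copies per cell cannot be told apart. The libraries held between 22804 and 51747 peaks, fewest in Ethanol library 2, and read totals were not given in the sources used here, so the depth behind a missing peak is unknown.

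In mammals most cytosine methylation falls on CpG dinucleotides. The starts of most widely used genes lie in CpG islands, stretches dense in CpG that stay unmethylated, while starts poor in CpG are often methylated. Among the exceptions are genes of the germline, whose CpG-rich starts are methylated in body tissues around implantation and are free of methylation in germ cells, and imprinted genes, where a differentially methylated region carries methylation on the copy from one parent.

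Many of the strongest start-site peaks lay at genes of these exceptions, and sequences inside 6 of these regions are shown because the measured signal comes from methylated CpGs. The 250 bases before the RefSeq start (GRCm38.p6) lay wholly inside the merged region at each of them: Dazl (chr17:50293621-50293870, minus strand), Sycp1 (chr3:102936101-102936350, minus strand), Tex12 (chr9:50561269-50561518, minus strand) and Mov10l1 (chr15:88982744-88982993, plus strand) of the germline, and Mest (chr6:30737800-30738049, plus strand) and Plagl1 (chr10:13090582-13090831, plus strand) among imprinted genes. At Sycp1, Mest and Plagl1 the median summit lay 337, 208 and 172 bp downstream of the start in the deposited annotation. The stretch shown need not hold the summit there. All 6 sequences are written 5′ to 3′ on the strand of the gene, with CpG dinucleotides in capitals.
Dazl: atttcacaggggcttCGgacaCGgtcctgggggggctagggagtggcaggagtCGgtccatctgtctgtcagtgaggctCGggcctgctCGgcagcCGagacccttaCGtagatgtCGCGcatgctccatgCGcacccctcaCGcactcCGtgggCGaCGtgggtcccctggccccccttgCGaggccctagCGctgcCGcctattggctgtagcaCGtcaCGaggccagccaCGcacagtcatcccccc
Sycp1: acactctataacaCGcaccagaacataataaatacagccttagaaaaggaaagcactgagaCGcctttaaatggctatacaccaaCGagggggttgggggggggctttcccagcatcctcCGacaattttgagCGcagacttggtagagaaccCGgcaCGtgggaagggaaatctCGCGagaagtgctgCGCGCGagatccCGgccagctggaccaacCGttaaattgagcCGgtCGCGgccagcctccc
Tex12: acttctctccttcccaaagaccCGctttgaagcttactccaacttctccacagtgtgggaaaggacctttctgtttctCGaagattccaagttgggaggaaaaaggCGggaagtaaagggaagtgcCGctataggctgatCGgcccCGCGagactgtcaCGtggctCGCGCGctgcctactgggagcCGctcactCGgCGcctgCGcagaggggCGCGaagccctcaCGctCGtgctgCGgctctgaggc
Mov10l1: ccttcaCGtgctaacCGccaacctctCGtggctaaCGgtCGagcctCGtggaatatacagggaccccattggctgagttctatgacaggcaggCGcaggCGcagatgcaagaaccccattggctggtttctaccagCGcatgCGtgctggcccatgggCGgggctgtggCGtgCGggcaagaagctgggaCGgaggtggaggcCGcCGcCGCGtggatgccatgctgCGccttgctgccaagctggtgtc
Mest: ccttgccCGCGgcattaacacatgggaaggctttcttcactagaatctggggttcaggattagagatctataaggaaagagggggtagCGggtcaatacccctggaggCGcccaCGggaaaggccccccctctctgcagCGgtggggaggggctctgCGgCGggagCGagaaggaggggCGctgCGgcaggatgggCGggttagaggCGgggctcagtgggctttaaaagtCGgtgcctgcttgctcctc
Plagl1: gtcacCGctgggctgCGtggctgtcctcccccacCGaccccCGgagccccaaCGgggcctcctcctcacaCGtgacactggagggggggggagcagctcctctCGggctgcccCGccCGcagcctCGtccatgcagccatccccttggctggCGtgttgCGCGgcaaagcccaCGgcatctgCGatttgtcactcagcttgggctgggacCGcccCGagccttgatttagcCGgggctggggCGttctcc

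Dazl and Tex12 each had 20 CpGs in these 250 bases, Mov10l1 and Plagl1 each had 19, Sycp1 had 17 and Mest had 14. The median over 32851 promoters of the reference was 6. Dazl and Tex12 thereby had more CpGs than 82.1% of promoters and Mest more than 70.6%. A set of 3 short motifs was searched on both strands. The E-box CACGTG, which several factors bind, occurred once in Sycp1, Tex12, Mov10l1 and Plagl1 and in 6.02% of all promoters. The E2F motif GCGGGAA occurred once in Tex12 and in 3.82% of promoters. TGCCGC, the motif of ZFP57, a protein that keeps the methylation of imprinted regions in the embryo, occurred 2 times in Mest, once in Dazl, Tex12 and Plagl1, and in 8.68% of promoters. A match says that the letters are present and not that the factor binds there.

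Sequences are also shown for a pair of regions whose peaks differed between the groups, chosen after their values were seen. Kif12 is shown because it had peaks in all 6 treated libraries and in neither Control library, and Cd209b because it had the reverse. The 300 bases centred on the median summit were read at Kif12 (chr4:63171507-63171806, minus strand), a kinesin motor gene, and at Cd209b (chr8:3926226-3926525, minus strand), a C-type lectin of macrophages.
Kif12: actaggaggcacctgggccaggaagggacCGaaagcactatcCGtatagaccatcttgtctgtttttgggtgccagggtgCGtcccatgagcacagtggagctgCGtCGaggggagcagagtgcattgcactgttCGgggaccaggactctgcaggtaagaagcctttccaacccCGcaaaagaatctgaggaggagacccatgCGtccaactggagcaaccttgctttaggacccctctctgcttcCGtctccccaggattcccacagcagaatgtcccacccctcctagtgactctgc
Cd209b: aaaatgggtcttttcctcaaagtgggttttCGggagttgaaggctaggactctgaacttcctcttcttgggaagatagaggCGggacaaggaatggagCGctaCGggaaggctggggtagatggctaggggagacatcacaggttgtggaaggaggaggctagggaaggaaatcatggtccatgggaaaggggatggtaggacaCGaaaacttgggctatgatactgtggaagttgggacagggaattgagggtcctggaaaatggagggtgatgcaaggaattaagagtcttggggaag

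These stretches held 9 CpGs at Kif12 and 5 at Cd209b, and none of the 3 motifs.

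Of the gene lists, those of the germline had the largest shares of their genes with a start-site region. Of 33 genes that act on RNA in germ cells, many of them in the piRNA pathway that silences transposons, 20 had a region (60.6%), and of 36 genes of meiotic chromosomes 16 did (44.4%), while of all genes 2.72% did. A list of 66 other germline genes had 15 (22.7%). The lists were written with earlier results of these data known, and the counts describe them.

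**Figure D1:**
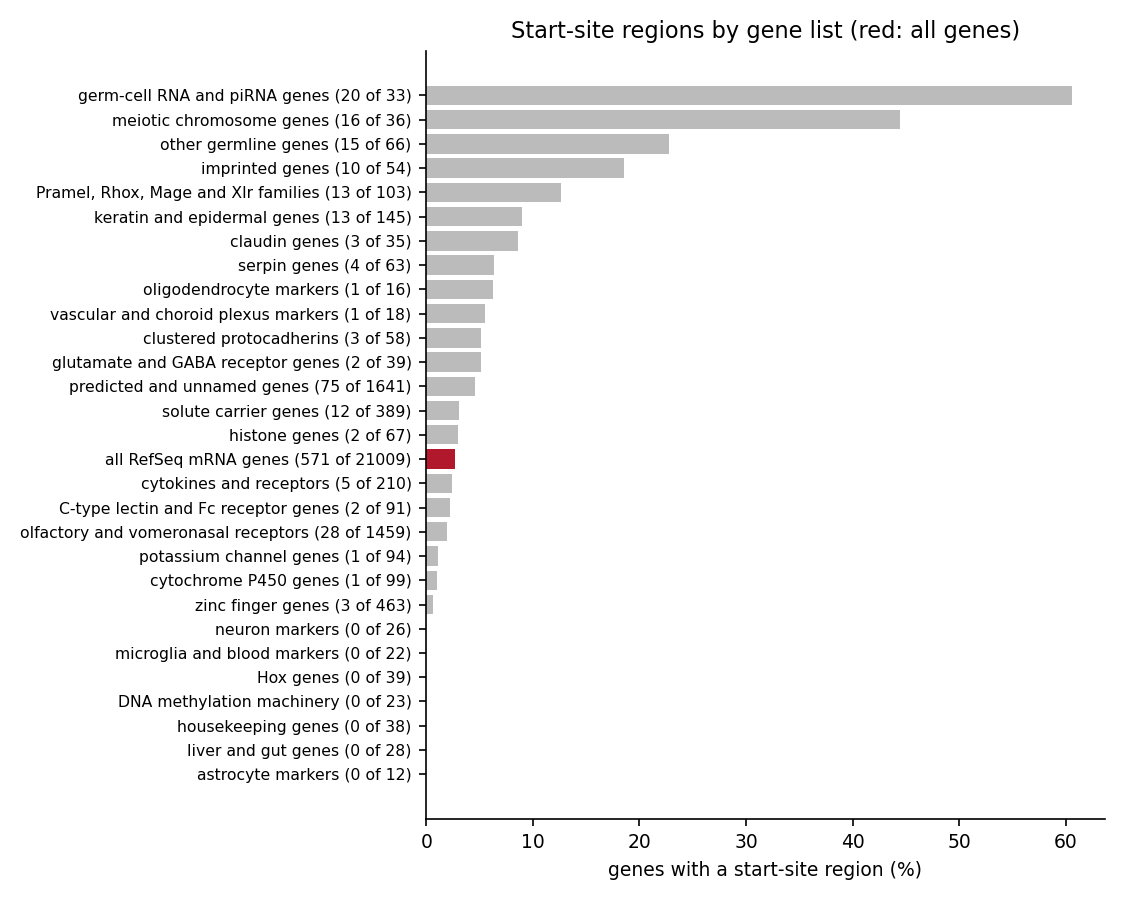
The plot of gene lists gives the share of each list's genes with a start-site region (%, horizontal axis), with counts beside each name and the share over all genes in red. The germ-cell RNA and piRNA list stands highest at 60.6%, the meiotic list follows at 44.4%, and 7 lists have no gene with a region.

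Dazl, an RNA-binding protein needed for germ cell development, had the highest median rank of the regions found in every library. Its fold enrichment was 59.6 and 25.9 in Ethanol libraries, 38.7 and 67.7 in Stress libraries, 49.998 and 35.2 in Ethanol + stress libraries, and 39.1 and 37.8 in Control libraries. In each library its peak was stronger than at least 99.6% of all peaks, and the groups overlapped. The region of 1075 bp ran over chr17:50293066-50294140, with its median summit 38 bp upstream of the start.

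The synaptonemal complex, the protein ladder that holds homologous chromosomes together in meiosis, had 6 components among the members. Sycp2, of the lateral element, had folds of 65.4 and 15.9 in Ethanol, 36.9 and 50.4 in Stress, 39.3 and 22.2 in Ethanol + stress and 32.4 and 39.8 in Control libraries. Sycp1, which forms the transverse filaments, had 29.5 and 11.3 in Ethanol, 17.95 and 23.1 in Stress, 26.7 and 22.4 in Ethanol + stress and 24.05 and 30.1 in Control libraries. For both genes Ethanol library 2 was the lowest of the 8 libraries and the Control values lay within the range of the treated ones, except Control library 2 at Sycp1, which was the highest of all. Tex12, of the central element, reached 36.6 and 17.99 in Ethanol, 14.95 and 18.9 in Stress, 39.4 and 19.9 in Ethanol + stress and 11.9 and 20.02 in Control libraries. Sycp3 had a region in all 8 libraries with folds of 5.54 to 16.6. Syce1 and Syce3, also of the central element, were members too.

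Other meiotic genes ranged from 1 library to all 8. Spo11, whose protein makes the DNA breaks that start recombination, had a peak in 7 libraries with folds of 13.2 to 26.5 and none in Ethanol library 2. Stra8, which germ cells switch on as they enter meiosis, likewise had a peak in every library but Ethanol library 2, at 7.51 to 14.4. Hormad1, a protein of the chromosome axis, had folds of 7.08 to 14.1 in all 8 libraries, and Hsf2bp, which acts in recombination, 9.52 to 22.4. Tex11, of the X chromosome, also had a peak in all 8 libraries, at 8.16 to 18.4. At the other end, Msh4 and Spata22 had a peak in 1 library each, at 7.80 and 4.86, and Hormad2 in 2 libraries, at 6.11 and 6.60.

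In the germ-cell RNA list 6 genes had regions in all 8 libraries. Mov10l1, a helicase needed to make piRNAs, had folds of 12.6 and 5.38 in Ethanol, 30.5 and 29.3 in Stress, 25.2 and 18.5 in Ethanol + stress and 15.3 and 14.1 in Control libraries. Its Ethanol values lay below every other library and its Stress values above. Tdrd12 and Tdrd1, Tudor-domain proteins of the same pathway, had folds of 9.64 to 28.2 and 5.22 to 23.0. The PIWI proteins, which carry the piRNAs, had weaker regions in fewer libraries: Piwil1 in 7 libraries at 3.85 to 11.2, Piwil2 in 4 at 3.58 to 6.76, and Piwil4 in Ethanol + stress library 1 alone at 7.12. Ddx4, the germ cell helicase also known as Vasa, had a peak in 5 libraries at 5.04 to 12.9.

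Of the remaining germline list, Slc25a31, a mitochondrial ADP/ATP carrier of sperm-forming cells, had folds of 32.4 and 13.8 in Ethanol, 19.99 and 22.3 in Stress, 28.7 and 21.3 in Ethanol + stress and 11.5 and 14.7 in Control libraries. All but 1 of its treated values exceeded both Control values. Ctcfl, the testis relative of the insulator protein CTCF, had 1 of the longest regions (2095 bp) and an even strength, 11.97 to 17.7. Brdt, a bromodomain protein of spermatids, ranged from 8.24 to 21.2.

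**Figure D2:**
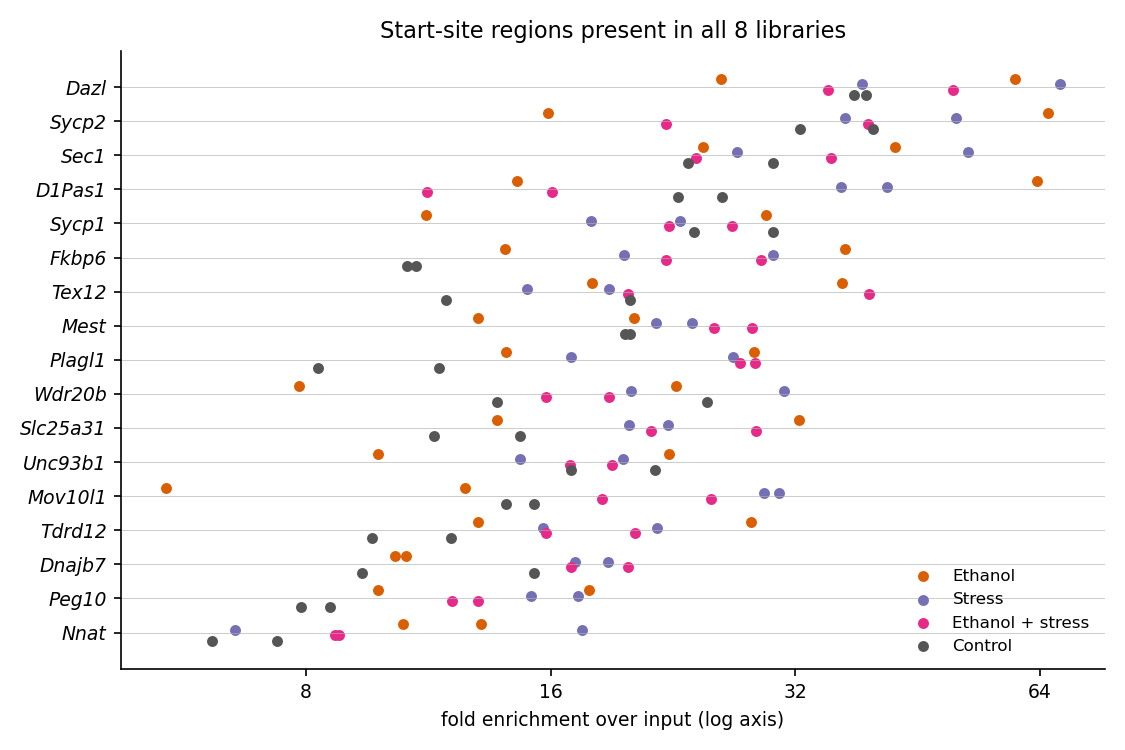
Each point is the fold enrichment (log axis) of 1 library at 1 start-site region found in all 8 libraries, coloured by group, with genes in order of median strength and the imprinted Peg10 and Nnat added below. Dazl spans 25.9 to 67.7, and Ethanol library 2 is often the lowest point of a row.

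Of 54 imprinted genes 10 had a start-site region (18.5%), and 6 of the 10 had peaks in all 8 libraries. Mest, expressed from the paternal copy, had folds of 20.3 and 13.04 in Ethanol, 21.6 and 23.9 in Stress, 28.3 and 25.4 in Ethanol + stress and 19.8 and 20.02 in Control libraries. Both Ethanol + stress libraries were above the other 6. Plagl1, which encodes a zinc finger factor, had 28.5 and 14.1 in Ethanol, 16.9 and 26.8 in Stress, 27.4 and 28.6 in Ethanol + stress and 11.7 and 8.29 in Control libraries, and here the Control libraries lay below the other 6. Peg10, an imprinted gene derived from a retrotransposon, ranged from 7.89 in a Control library to 17.8, and Nnat, an imprinted gene of the brain, from 6.13 to 17.5. Peg3 and Usp29 start close together on opposite strands and shared 1 region of 1238 bp, with folds of 5.87 to 14.2. Mcts2 and Nap1l5, copies made through reverse transcription that lie inside other genes, had peaks in 7 and 5 libraries.

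Grb10 and Cdkn1c, imprinted inhibitors of growth, differed from the rest in lacking a Control peak. Grb10 had folds of 4.39 and 5.98 in Stress libraries and 5.67 and 5.45 in Ethanol + stress libraries, with no peak in either Ethanol or either Control library. Cdkn1c had 7.39 in Ethanol library 1, 5.64 and 14.6 in Stress and 7.47 and 8.89 in Ethanol + stress libraries, and none in Ethanol library 2 or in either Control library.

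Genes with a single exon, the form left by retrotransposed copies and typical of olfactory receptors, made up 17.1% of the starts with a region and 8.36% of all starts. Of 2177 single-exon starts 91 had a region (4.18%), against 446 of 23855 starts of genes with more exons (1.87%). Without olfactory and vomeronasal receptors the share of single-exon starts was 6.63%, 64 of 965. Several of these genes are copies expressed in testis. D1Pas1, a copy of the RNA helicase gene Ddx3x, had folds of 63.5 and 14.6 in Ethanol, 36.5 and 41.5 in Stress, 16.1 and 11.3 in Ethanol + stress and 23.0 and 26.0 in Control libraries. Stress libraries lay above Control libraries and Ethanol + stress libraries below them, while the Ethanol libraries stood on either side. Wdr20b, which has 2 exons in RefSeq and so is not a single-exon gene, was also strong. It had 22.8 and 7.84 in Ethanol, 20.1 and 31.0 in Stress, 18.9 and 15.8 in Ethanol + stress and 24.9 and 13.8 in Control libraries. Dnajb7, of the family of HSP40 co-chaperones, ranged from 9.37 to 19.9. Syna, the envelope gene of an endogenous retrovirus that serves in the placenta, had the longest region of all at 2207 bp, with folds of 5.02 to 20.5. Long regions were not always strong or shared: Prss21, a serine protease of testis, had 2074 bp with peaks in 5 libraries at 5.33 to 8.13, and Sohlh2, a germ cell transcription factor, 2046 bp with peaks in 7 at 5.55 to 13.04.

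Some of the strongest regions belonged to no list of the germline. Gm7120, which RefSeq names Tmem267, was strong in every library, at 26.8 to 42.6. It stands among the predicted and unnamed genes by its symbol in the deposited annotation. Gm13718, which RefSeq names Btbd18, and 1700029P11Rik, of the same list, ranged from 9.65 to 25.1 and from 11.97 to 28.3. Absence from the germline lists does not show that a gene has no role in germ cells. Sec1, of the fucosyltransferase family, had folds of 42.4 and 24.7 in Ethanol, 27.1 and 52.1 in Stress, 35.4 and 24.2 in Ethanol + stress and 23.6 and 30.1 in Control libraries. Unc93b1, which carries nucleic acid sensors of the Toll-like receptor family to endosomes, ranged from 9.83 to 22.3.

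Large families gave many weaker regions. Olfactory and vomeronasal receptor genes had 28 of 1459 genes with a region (1.92%, below the 2.72% of all genes), and 22 of their 29 regions had the summit in a coding exon. The strongest of them was Olfr281, with folds of 9.23 to 25.9 in all 8 libraries, followed by 2 neighbours on chromosome 15, Olfr283 at 6.61 to 14.2 in all 8 and Olfr282 at 4.995 to 13.6 in 7. Keratin genes, of skin and hair, had 13 of 145 (8.97%), and 11 of their 13 regions lay in coding exons. Krt75 had peaks in 6 libraries at 8.16 to 17.1. The Pramel, Rhox, Mage and Xlr families, which lie largely on the X chromosome and are expressed in reproductive tissues, had 13 of 103 (12.6%), none of them in all 8 libraries. Predicted and unnamed genes had 75 of 1641 (4.57%). Zinc finger genes were rarer than the average, with 3 of 463 (0.648%).

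Marker genes of the cells of the hippocampus were too few to set apart from the 2.72% of all genes. None of 26 neuron markers, 12 astrocyte markers or 22 microglia and blood markers had a start-site region, nor did any of 38 housekeeping genes, 39 Hox genes, 23 genes of the DNA methylation machinery or 28 liver and gut genes. In these samples of brain DNA such markers check no cell type, because a gene's methylation is not its expression. Of 16 oligodendrocyte markers 1 had a region (6.25%), Mobp, of myelin, with a peak in Ethanol library 1 (8.13) and Ethanol + stress library 2 (5.09). Of 18 vascular and choroid plexus markers 1 had a region (5.56%), Folr1, a folate receptor, with a peak in Stress library 2 alone (6.53). Of 39 glutamate and GABA receptor genes 2 had a region. Grin2d, a subunit of the NMDA receptor, had a peak in 5 libraries, 6.58 in Stress library 1, 9.30 and 5.76 in Ethanol + stress and 6.89 and 9.84 in Control libraries, and none in either Ethanol library. Grm4, a metabotropic glutamate receptor, had 7.01 and 7.45 in Stress libraries and 13.4 in Ethanol + stress library 1. Among potassium channel genes Kcng1 was the 1 of 94 with a region, and it had a peak in all 8 libraries at 5.54 to 13.7.

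The CpG content of the start separated genes with a region from the rest. CpG content was measured as observed over expected CpG, the number of CpGs relative to what the C and G content alone would give, over 500 bp on either side of the RefSeq start. The median was 0.372 over 538 pairs of a region and a start, against 0.579 over all 26032 starts. Starts rich in CpG, with a ratio above 0.6 and more than 50% G and C, were 12.5% of the starts with a region and 46.6% of all starts. Starts between 0.3 and 0.6 were 50.4% and 22.0%, and starts under 0.3 were 34.6% and 30.1%. The share of starts with a region was 0.816% below a ratio of 0.1, 6.30% from 0.3 to 0.4, 5.97% from 0.4 to 0.5 and 0.212% from 0.8 to 0.9. At a ratio of 1 or more none of 522 starts had one. MeDIP recovers fragments with several methylated CpGs better than fragments with few, and the part of that in the low share of CpG-poor starts was not tested.

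**Figure D3:**
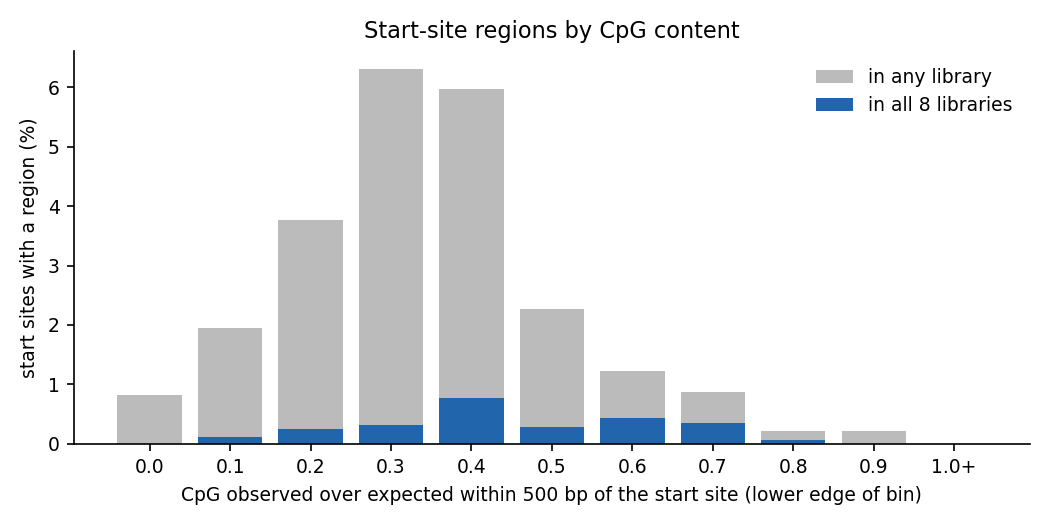
Bars give the share of RefSeq starts with a start-site region (%, vertical axis) in bins of observed over expected CpG (horizontal axis, lower edge of each bin), in any library (grey) and in all 8 (blue). The share peaks at 6.30% in the bin from 0.3 to 0.4 and is 0 of 522 starts at a ratio of 1 or more.

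Germline and imprinted members had more CpG than the other members. The median ratio was 0.561 over 51 germline starts and 0.776 over 10 imprinted starts. It was 0.579 over all starts. Over the 436 members outside the germline, imprinted, olfactory and vomeronasal receptor and keratin lists it was 0.354. Of the germline starts 43.1% were CpG-rich and 52.9% intermediate, so they were no richer in CpG than starts in general, while 80% of the imprinted starts were CpG-rich. The E-box CACGTG occurred within 500 bp of 47.1% of the germline starts and of 17.4% of all starts, and the E2F motif GCGGGAA near 31.4% and 16.1%. TGCCGC was found near 80% of the imprinted starts and near 36.7% of all starts.

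Start-site peaks lay downstream of the start more often than upstream. The median summit was downstream of the start, or on it, in 382 of 571 regions (66.9%) and upstream in 189 (33.1%), with a median position 166 bp downstream. Counted in steps of 250 bp over all libraries, the steps upstream held 218 and 336 summits and the steps downstream 596 and 568. Steps 5 to 10 kb away held a median of 508 summits upstream and 559 downstream. The dip in summits was therefore on the upstream side of the start. The median summit fell in an intron in 183 regions (32.05%), in a coding exon in 154 (27.0%), outside mRNA genes in 153 (26.8%) and in a UTR in 81 (14.2%), and 357 regions (62.5%) covered the start site of their gene.

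**Figure D4:**
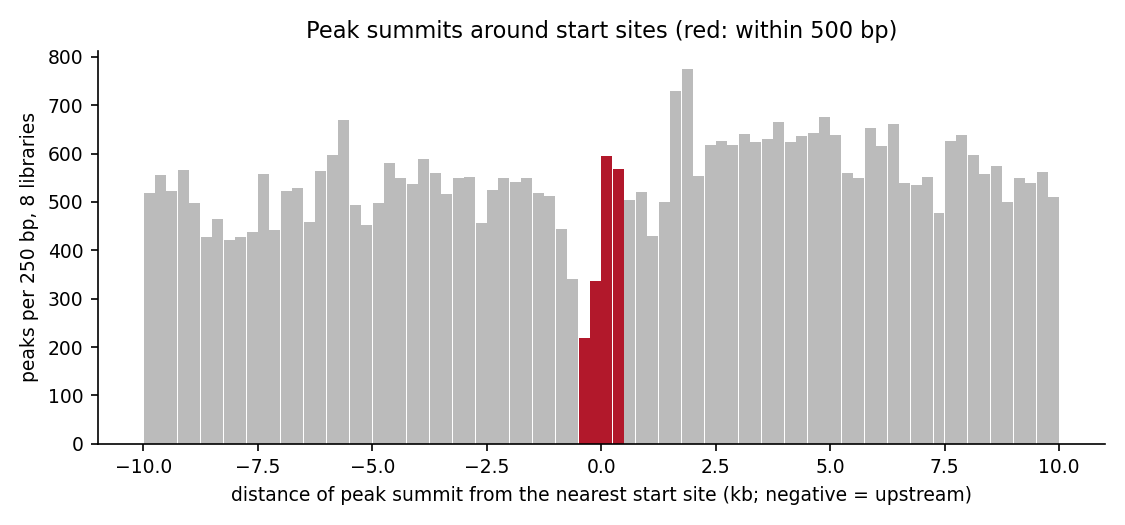
Bars count peak summits of all 8 libraries per 250 bp (vertical axis) by distance from the nearest start (kb, horizontal axis, upstream negative), with the chosen window in red. The lowest bar of the window, at 218 summits, is the step from 500 to 250 bp upstream, and the step just downstream of the start holds 596.

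At the limit of the window, Gpr133 in Ethanol library 1 and Pik3cd in Stress library 1 had summits exactly 500 bp upstream and were kept with folds of 8.12 and 8.35. A summit 501 bp downstream was left out, at Olfr283 in Stress library 2 (12.02). By chromosome, regions were densest on chromosome 15, which carries a keratin cluster, with 5.53 regions per 100 genes, followed by X with 4.21, and sparsest among autosomes on chromosome 19 with 1.58.

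Regions were shared between libraries to a degree that went with length, strength and CpG content. Peaks of all 8 libraries overlapped 65 regions (11.4%), and 178 regions (31.2%) had a peak in 1 library only. Of all merged regions, in which neighbouring peaks of any position are joined, these were 9.76% and 38.7%. With only start-site peaks counted as present, 49 regions were in all 8 libraries and 224 in 1. Regions in 1 library, in 2 to 4, in 5 to 7 and in 8 libraries had median lengths of 498.5, 658, 817 and 1035 bp. Part of that increase is built in, because merging more peaks makes a longer region, and the median length of single peaks was 498.5, 557, 596 and 788 bp. Their median folds were 6.48, 6.97, 7.79 and 12.1. Observed over expected CpG within the region was 0.370, 0.393, 0.424 and 0.552. Peaks that are strong pass the calling threshold in more libraries, so strength and sharing are not separate measures.

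Genes of the germline lists held 16 of the 65 regions found in all libraries (24.6%), and 16 of their 51 regions were found in all (31.4%). Of genes in none of the named classes it was 37 of 382 regions (9.69%). Those 382 include genes of testis or meiosis that the lists leave out, such as D1Pas1, Topaz1 and Ccin, each found in all libraries. The shares therefore describe the lists and not all germline genes. Imprinted genes had 5 of 10 regions in all libraries. Olfactory receptors had 2 of 29, and the keratin and the Pramel, Rhox, Mage and Xlr families had 0 of 13 and 0 of 14.

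Libraries of 1 group shared start-site regions unevenly. Of the regions with a peak in a group, both libraries had one in 96 of 368 in Ethanol (26.1%), 221 of 413 in Stress (53.5%), 177 of 374 in Ethanol + stress (47.3%) and 121 of 251 in Control (48.2%). Ethanol library 2 held 129 of the 571 regions, the fewest, and Stress library 2 held 358, the most. Of the 38 regions found in 7 libraries 21 were missing in Ethanol library 2 alone. Without that library 86 regions had a peak in every remaining library.

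Start-site peaks were much like other peaks in strength and somewhat longer. Medians within each library were compared over the 8 libraries with exact two-sided sign-flip permutation tests, with p-values adjusted over 9 tests by the Benjamini-Hochberg method. The smallest p that 8 libraries allow is 0.0078. Start-site peaks averaged 604.7 bp and all other peaks 582.9 bp, a difference of 21.8 ± 20.4 bp (SD, n = 8 libraries), longer in 7 of 8 libraries (exact p = 0.0234, adjusted 0.0563). The −log10 q-value, the caller's measure of confidence, was higher by 1.89 ± 1.70 in 6 of 8 libraries (exact p = 0.0312, adjusted 0.0563). The log2 fold enrichment differed by 0.02 ± 0.04 (exact p = 0.281, adjusted 0.312). Set against peaks inside gene bodies or peaks 2 to 20 kb upstream of genes, start-site peaks were longer by 24.4 and 21.2 bp, and none of the 9 tests passed 0.05 after adjustment. Without Control library 2, in which start-site peaks were the shorter ones (566 bp, against 586 bp for other peaks), 7 of 9 tests passed.

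Start-site peaks were most numerous in the libraries with the most peaks. Ethanol libraries had 295 and 110 start-site peaks, Stress libraries 232 and 309, Ethanol + stress libraries 273 and 185, and Control libraries 157 and 159. All libraries but Ethanol library 2 exceeded both Control libraries. As a share of all peaks these were 0.642% and 0.482% in Ethanol, 0.577% and 0.597% in Stress, 0.633% and 0.512% in Ethanol + stress and 0.568% and 0.662% in Control libraries, and the groups overlapped. The mean share was 0.562 ± 0.113% in Ethanol, 0.587 ± 0.0140% in Stress, 0.572 ± 0.0858% in Ethanol + stress and 0.615 ± 0.0667% in Control (SD, n = 2 each). With 2 libraries against 2, an exact permutation test cannot give a p below 0.333, and no difference between groups in number, share, strength or length passed in 24 tests, of each treatment against Control, of the 4 separated and the 4 ethanol-exposed libraries against the other 4, and of the interaction of both treatments (all adjusted p = 1 by the exact permutation test). The 4 separated libraries had 249.8 ± 53.4 start-site peaks and the 4 unseparated ones 180.2 ± 79.8.

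**Figure D5:**
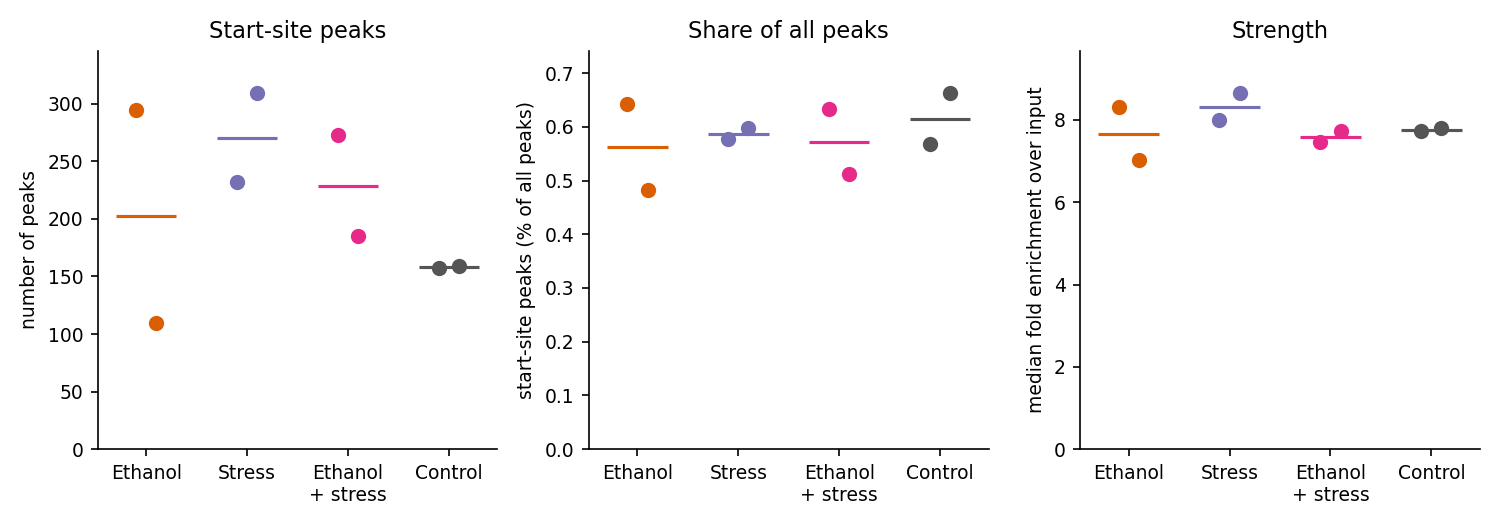
Points are libraries and lines the mean of each group, for the number of start-site peaks, their share of all peaks (%) and their median fold enrichment. Ethanol library 2 has the fewest peaks (110) and Stress library 2 the most (309), and shares run from 0.482% in Ethanol library 2 to 0.662% in Control library 2.

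Regions with a peak in both libraries of a treatment and in neither Control library were called gained, and the reverse lost. The 3 treatments share the same Control libraries. In Ethanol 9 of 571 start-site regions were gained (1.58%) and 7 lost (1.23%), where the shares over all merged regions were 2.82% and 0.93%. In Stress 58 were gained (10.2%) and 4 lost (0.701%), against 8.93% and 0.847% over all regions. In Ethanol + stress 36 were gained (6.30%) and 3 lost (0.525%), against 5.54% and 0.656%. The gains at start sites were near the share of all regions in Stress and Ethanol + stress and below it in Ethanol. The regions behind the shares over all were merged from all peaks, which joins neighbours. They are therefore not built like the start-site regions, which were merged from start-site peaks alone. Each library was also cut to the 22804 peaks with its highest −log10 q-values. Then 3, 16 and 11 regions were gained and 18, 12 and 5 were lost in Ethanol, Stress and Ethanol + stress. The shares over all merged regions were not computed after this cut, so nothing about start sites is read from these counts. With 1 library of a treatment left out, the criterion asks for a peak in its other library alone. A higher count of gains is then built in and does not measure the weight of the library. The Ethanol gains were 133 without Ethanol library 2, and the Stress gains were 161 without Stress library 1. In Ethanol + stress the gains were 125 without library 2.

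Kif12 and 1700123I01Rik were gained in all 3 treatments. Kif12 had folds of 13.3 and 4.31 in Ethanol, 3.70 and 12.1 in Stress and 6.12 and 3.64 in Ethanol + stress libraries and no peak in Control libraries. The region of 851 bp on chr4:63171172-63172022 began downstream of the start, with its median summit 474 bp inside the gene in a coding exon. 1700123I01Rik, which RefSeq names Majin, a protein that ties telomeres to the nuclear envelope in meiosis, had 5.07 and 4.92 in Ethanol, 6.18 and 8.91 in Stress and 8.83 and 6.29 in Ethanol + stress libraries. These peaks were weak in part: the weaker of the 2 Ethanol peaks was stronger than 1.97% of the peaks of its library at Kif12 and than 4.50% at 1700123I01Rik. For the weaker Stress peak these were 0.347% and 22.3%, and for the weaker Ethanol + stress peak 0.556% and 27.3%. Cd209b was lost in all 3, with folds of 6.13 and 6.71 in Control libraries, in an intron 422 bp downstream of its start.

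Most other regions met the criterion in 1 treatment. In Ethanol the strongest gains were Ube2d2b, a ubiquitin-conjugating enzyme (8.13 and 6.97), and Rhox2b, a homeobox gene of reproductive tissue (6.76 and 6.13), and the losses included 2410131K14Rik, the strongest (10.7 and 12.6 in Control libraries), Grin2d and Zfpm1, a cofactor of GATA factors (8.73 and 10.3 in Control libraries). In Stress, Tktl1, a transketolase-like gene on X, had 9.55 and 10.3, and Pramel1 had 11.5 and 13.7. Both also had peaks in Ethanol library 1 and Ethanol + stress library 1. In Ethanol + stress, Aanat, an enzyme of melatonin synthesis, had 8.38 and 8.13. Foxi1, a forkhead factor, was gained in Ethanol + stress (13.03 and 12.5) and in Stress (6.99 and 9.32). When all peaks were merged, it fell in a wider region, chr11:34207382-34209834, which had a peak in every library, Control included. Casq1, a calcium store protein of muscle, was gained in Stress (8.85 and 9.19) and in Ethanol + stress (9.61 and 8.97). Of the losses, Lsp1, an actin-binding protein of leukocytes, was missing in Stress and Ethanol + stress and had 7.31 and 8.19 in Control libraries. 2410131K14Rik was lost in both Ethanol and Stress. Over all start-site regions 65 were gained in 1 treatment, 16 in 2 and 2 in 3, and 5, 3 and 1 were lost. Germline genes, 8.93% of all start-site regions, gave 1 of the 9 gains in Ethanol, 5 of 58 in Stress and 4 of 36 in Ethanol + stress and none of the losses, and nothing is read from such counts.

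The strength of peaks was compared where every library had one. Among 8901 such merged regions 70 covered a start-site region, more than 65 because merging all peaks joins neighbours. The log2 fold enrichment was centred on each library's median and fitted with limma over the 4 groups, with adjusted p-values over all 8901 regions. Before centring the library medians were 3.85 and 3.13 in Ethanol, 3.58 and 3.94 in Stress, 3.66 and 3.48 in Ethanol + stress and 3.41 and 3.40 in Control, so changes below are relative to those medians. In Ethanol 1 of the 70 rose and 0 fell, against 1.02% and 0.663% of all regions. In Stress 3 rose and 0 fell, against 2.52% and 1.62%, and in Ethanol + stress 2 rose and 3 fell, against 1.35% and 1.44%. At an unadjusted limma p under 0.05, 9 of the 70 were higher and 4 lower in Ethanol, 9 and 1 in Stress, and 9 and 5 in Ethanol + stress. Over all 8901 regions the same counts were 619 and 565 in Ethanol, 896 and 756 in Stress, and 658 and 719 in Ethanol + stress. Without centring the calls among the 70 were 0 in Ethanol, 2 in Stress (Bin2 and Tktl2) and 0 in Ethanol + stress. The median difference of the 70 was 0.09, 0.13 and 0.08 on the log2 scale in Ethanol, Stress and Ethanol + stress, and between −0.018 and 0.0027 over all regions. Since these comparisons share the Control libraries, they are no independent repeats of each other.

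Bin2, a membrane-bending protein of white blood cells and microglia, showed the largest difference of the 70 in Stress. Its folds were 22.4 and 34.8 in Stress libraries, against 6.57 and 6.16 in Control libraries, and the Ethanol and Ethanol + stress libraries ranged from 6.91 to 13.4. Both Stress libraries were above the other 6, and the difference from Control was 1.78 ± 0.30 (log2, SE, adjusted p = 0.000172 by limma). The region lay in an intron 230 bp downstream of the start, on chr15:100668805-100669735. Its call held whichever library was left out. Tktl2, a single-exon transketolase-like gene, had 14.2 and 20.04 in Stress and 3.81 and 9.07 in Control libraries (log2 difference 1.17 ± 0.33, SE, limma adjusted p = 0.0271). Without Control library 1 that difference was 0.54 with a limma adjusted p of 0.571. Ccin, which encodes calicin of the sperm head and also has a single exon, had 19.7 and 15.8 in Stress and 7.31 and 6.10 in Control libraries (1.05 ± 0.32, limma adjusted p = 0.0425). Its call was lost in 4 of the 8 fits that left out a library, with an adjusted p of 0.362 without Stress library 1.

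In Ethanol + stress 5 regions passed, none of which did so without centring on library medians. 4933416C03Rik, which RefSeq names Taf7l2, a relative of a subunit of the general transcription machinery, fell by 1.44 on the log2 scale (SE 0.28, limma adjusted p = 0.00158). Its folds were 11.7 and 10.3 in Ethanol + stress libraries, against 26.1 and 27.1 in Control libraries, and the other 4 libraries ranged from 14.5 to 38.3. This call held whichever library was left out, and without centring the limma adjusted p was 0.498. Topaz1, a gene needed in male meiosis, fell by 1.28 (SE 0.32, adjusted p = 0.0172), with folds of 6.96 and 3.77 in Ethanol + stress libraries, against 10.2 and 12.03 in Control libraries. Both Ethanol + stress libraries were the lowest of the 8. Without Ethanol + stress library 2 the limma adjusted p was 0.280. D1Pas1 fell by 1.02 (SE 0.30, adjusted p = 0.0410), and that call was lost in 6 of 8 fits. Plagl1 rose by 1.34 (SE 0.28, adjusted p = 0.00483), and its call was lost without Ethanol + stress library 2 or Control library 2, with a limma adjusted p of up to 0.0946. Fkbp6, which acts in the piRNA pathway and in chromosome pairing, rose in Ethanol + stress by 1.07 (adjusted p = 0.0236) and in Ethanol by 1.00 (adjusted p = 0.0491). Its folds were 36.8 and 14.1 in Ethanol, 29.01 and 22.2 in Ethanol + stress and 10.9 and 10.6 in Control libraries, and in Stress they were 19.7 and 30.03. All 6 treated libraries exceeded the Control libraries. The Ethanol call was lost in 7 of the 8 fits that left out a library. Without Ethanol library 1 its difference was 0.67. The Ethanol + stress call was lost in 4 of the 8, with a difference of 0.97 without Ethanol + stress library 1.

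Whether both treatments together differed from the sum of each was tested as an interaction in the same limma fit, a contrast added after the data had been seen. Of the 70 regions 0 were positive and 3 negative, against 0.719% and 1.44% of all regions. They were Tktl2 (−1.82 ± 0.46, log2, SE, adjusted p = 0.0204), D1Pas1 (−1.58 ± 0.42, adjusted p = 0.0270) and Bin2 (−1.51 ± 0.43, adjusted p = 0.0395). At each of them the Ethanol + stress libraries lay below the sum of the Ethanol and the Stress differences from Control. Dazl, Sycp1 and Sycp2, with some of the strongest peaks, gave no call in any comparison with Control, and Dazl had limma adjusted p-values of 0.968 in Ethanol, 0.930 in Stress and 0.968 in Ethanol + stress.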

How the data were processed

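MeDIP-Seq peak lists of 8 enriched libraries were analysed, 2 in each of 4 groups, and no peaks of the 4 input libraries were used on their own. Per the submitters' processing notes, reads were aligned to mm10 with HISAT2 2.1.0. Peaks were called with MACS in each library against the input of its group and were annotated with the nearest RefSeq gene; the columns of the files are those of a later MACS release than the methods name. The deposited fold enrichment is a ratio at the summit over the local background, and the deposited −log10 q-value is that of the caller. The deposited summit tag value, a score, entered no test. Read totals were not given in the sources used here, so the depth of each library is unknown and no counting interval could be given.

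Peaks with a summit within 500 bp of the nearest start were merged across libraries (1 bp overlap), and a region counted as present in a library with any overlapping peak. The members, the gene lists and the tests were chosen with earlier results of these data known. Genes were matched to RefSeq (GRCm38.p6) by gene ID for 562 of 571, and 9 were not matched and had no CpG content; mitochondrial peaks had no gene and were left out. Named genes were drawn from the 15 strongest regions found in all 8 libraries, up to 4 leading members of each list, up to 6 of the strongest gained and of the strongest lost regions of each treatment, the 5 longest regions and those called by limma. Predicted genes and olfactory or vomeronasal receptors were left out of this rule except as list members, not every gene that met it is named, and other genes were named after their values were seen.

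Tests were exact permutation tests over libraries and limma 3.58.1 (R 4.3.3) on log2 fold enrichment centred on library medians, with Benjamini-Hochberg adjustment and a threshold of 0.05. Other steps used Python 3.11.15, pandas 2.3.3, numpy 2.4.6 and matplotlib 3.10.9, and the tests were checked on simulated data. Alternatives were windows of 250 and 1000 bp, a −log10 q-value of at least 10, equal numbers of peaks, no sex chromosomes, a stricter overlap of 50%, start-site peaks alone, no centring, quantile normalization, a replicate block and each library left out. Replicate numbers did not pair the samples.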

Additional observations from a re-analysis of the deposited data

Results flagged for a closer look

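In 76 sets of 4 libraries, formed by separation or by ethanol exposure and covering the strongest regions and the totals of each library, 7 values lay far from the other 3 libraries of their set; chance flags about 1 set in 20. At Dazl Stress library 2 had a fold of 67.7, while the other 3 libraries without ethanol had 37.8 to 39.1. Ethanol library 1 stood out at D1Pas1 with 63.5, against 11.3 to 16.1 in the other ethanol-exposed libraries, at Fkbp6 with 36.8, against 10.6 to 14.1 in the other unseparated libraries, and at Slc25a31 with 32.4, against 11.5 to 14.7 there. Ethanol library 2 was low at Mest with 13.04, against 19.8 to 20.3 in the other unseparated libraries, and at Plagl1 with 14.1, against 27.4 to 28.6 in the other ethanol-exposed libraries. Stress library 1 was low at Plagl1 with 16.9, against 26.8 to 28.6 in the other separated libraries. These folds were not centred on library medians. Over 8901 regions with a peak in every library the median log2 fold was 3.85 and 3.13 in Ethanol libraries 1 and 2. It was 3.58 and 3.94 in Stress, 3.66 and 3.48 in Ethanol + stress and 3.41 and 3.40 in Control libraries. The part of these library levels in the flags was not tested.

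The effect of one treatment differed with the other at 3 start-site regions by the interaction test in limma, a contrast added after seeing the data. The log2 interaction was −1.82 at Tktl2 (adjusted p = 0.0204), −1.58 at D1Pas1 (adjusted p = 0.0270) and −1.51 at Bin2 (adjusted p = 0.0395).

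Outside the regions studied, Ethanol + stress library 2 had 5 peaks on the mitochondrial genome, to which no gene was assigned, while each Control library had 1 and no other library had more than 1.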

How the results depend on the processing

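The number of start-site regions was 331 with a window of 250 bp, 1151 with 1000 bp and 353 with equal numbers of peaks, those in 1 library 85, 388 and 98, and those in every library 116 with 1000 bp. Gains in Ethanol were 25 with 1000 bp and 3 with equal numbers, and losses 2, 13 and 18 with 250 bp, 1000 bp and equal numbers. In the same 3 settings Stress gains were 35, 107 and 16 and losses 0, 11 and 12, and Ethanol + stress gains were 22, 69 and 11 and losses 1, 5 and 5. With only start-site peaks as present, 38 were gained in Stress and 6 lost in Ethanol + stress. With 1 library left out, gains ran from 8 to 133, 55 to 161 and 34 to 125 and losses from 6 to 48, 3 to 24 and 3 to 26 in Ethanol, Stress and Ethanol + stress. Where that library was of the treatment or of Control, 1 library stood for its group, so higher counts were built in. Shares over all merged regions were not computed with equal numbers of peaks or with a library left out. Of the 9 tests of start-site peaks against other peaks, none passed as reported, 7 with 250 bp, 6 with 1000 bp, 5 with −log10 q of at least 10, 3 with equal numbers, 6 without sex chromosomes and 0 to 7 with 1 library left out.

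Directions turned in values that passed no test. The difference in the number of start-site peaks in Ethanol was −3.5 with equal numbers and −48 to 137 with 1 library left out. That in their share, in percentage points, was −0.133 to 0.027 in Ethanol with 1 library left out, 0.00103 with 250 bp, 0.0702 with equal numbers and −0.0748 to 0.0195 with 1 library left out in Stress, and 0.00962 with 1000 bp, 0.0285 with equal numbers and −0.103 to 0.018 with 1 library left out in Ethanol + stress. The log2 fold difference from all other peaks was −0.00606 with 1000 bp and −0.0110 with equal numbers, and from upstream peaks −0.00818 and −0.0146. The cause was not tested.

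Limma calls at the 70 regions were 0, 2 and 0 in Ethanol, Stress and Ethanol + stress without centring (Bin2 and Tktl2 kept theirs), against 1, 3 and 5 as reported, 3 in Ethanol with quantile normalization, and 0 to 1, 1 to 3 and 1 to 5 with 1 library left out. With the replicate number as a block they were 0 in Ethanol, 2 in Stress and 5 in Ethanol + stress, and libraries of equal number did not deviate together (correlations of −0.0973 to 0.140 between groups over 8901 regions), so the numbers are not a pairing. Over all 8901 regions limma called 6 in Ethanol, 99 in Stress and 5 in Ethanol + stress without centring, and 283 in Ethanol with quantile normalization.

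With 2 libraries a group no comparison of 1 value can pass an exact test, and a missing peak cannot be told apart from a peak below the calling threshold at a depth that is not known. A peak is no methylation level, and each group was called against its own input.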
